A study of Arabidopsis thaliana with 15 samples.

Results

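The 4 libraries of rdd, a triple mutant of the DNA demethylase genes ROS1, DML2 and DML3, were compared with the 4 libraries of dme, a single mutant of the fourth family member DME. They were taken by their titles and make up 8 of the 15 libraries of the series. Polyadenylated RNA was measured by RNA-seq in the fifth rosette leaf of Arabidopsis thaliana at day 21. Plants had 16 h of light at 22 °C and 50% humidity. dme plants carried the allele dme-2, and rdd plants carried ros1-3 together with dml2-1 and dml3-1. WT (4 libraries) was a segregant with the family intact, labelled DRDD, and drdd (3 libraries) joined dme-2 to the 3 rdd alleles. All 4 genotypes, the control included, also carried a DME transgene under the AGL61 promoter, written pAGL61::DME or pAGL61:DME. WT and drdd libraries served to place each difference and did not enter the contrast itself. No label states that the replicates are different plants, and the p-values below then reflect only how these libraries varied, possibly for technical reasons.

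DME, ROS1, DML2 and DML3 encode DNA glycosylases that cut methylated cytosine out of DNA, after which base excision repair puts in an unmethylated base. In Arabidopsis, DME is best known from the central cell of the ovule, where it demethylates the maternal genome before fertilisation and sets up imprinting in the endosperm. ROS1, DML2 and DML3 act in vegetative tissue, where they keep methylation that spreads from transposons away from nearby genes. The AGL61 promoter is active in the central cell. Subtracting dme from rdd cancels WT, so a gene that passes the test is one whose difference from WT was unequal in the mutants.

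Expression is given as CPM, a gene's count scaled to the total of its library after edgeR's TMM correction. The 8 libraries held 9190099 to 23302135 counts assigned to genes, and the deepest was rdd D. The 6 marker genes of leaf mesophyll had a mean log2 CPM between 9.83 and 10.6 in each of the 8 libraries. None of 7 genes for the shoot meristem and flower passed the count filter, which asks for counts in at least 3 libraries. Among them PISTILLATA (PI) had 371 counts in rdd D, so the filter does not show absence from every library. The libraries dme C and rdd B stood apart on stress genes. In dme C the mean log2 CPM of 18 wound and touch genes was 6.30, against 2.58 to 3.29 in the other dme libraries and 1.73 to 3.11 in rdd. In rdd B the mean log2 CPM of 24 salicylic acid defence genes was 5.76, against 2.44 to 2.99 in the other rdd libraries and 4.1 to 5.34 in dme.

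The mutated genes themselves were read first. DML2 was measured at 26.5, 23.9, 28.1 and 28.1 CPM in dme A to D and at 6.50, 10.1, 5.89 and 5.30 CPM in rdd A to D. The ranges lay apart, and the log2 fold change of rdd against dme was -1.95 ± 0.21 (SE; edgeR quasi-likelihood test, adjusted p = 0.000125). DML3 stood at 5.83, 8.34, 5.00 and 9.10 CPM in dme and at 4.24, 2.30, 3.60 and 2.76 CPM in rdd. It also fell, by 1.13 on the log2 scale (SE 0.26, edgeR adjusted p = 0.0456), although the call was lost on leaving out any one of 10 libraries, with adjusted p up to 0.158 without rdd D. ROS1 had 62.6 to 105.9 CPM in dme and 52.9 to 68.3 CPM in rdd, and these ranges overlapped. Its log2 fold change of -0.61 ± 0.15 missed the threshold (edgeR adjusted p = 0.068) but passed it without dme B (adjusted p = 0.0138). DME was at 54.9 to 74.7 CPM in dme and 74.8 to 105.9 CPM in rdd, with a log2 fold change of 0.44 ± 0.13 that did not pass (edgeR adjusted p = 0.11). Counts run over whole genes and take in transcripts of a mutant allele and of the transgene, so a level does not show whether a functional enzyme was made.

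Across all genes, 234 of 18598 tested genes (1.26%) differed between rdd and dme at an edgeR adjusted p under 0.05. Of these, 111 (0.597%) were higher and 123 (0.661%) lower in rdd. At an unadjusted p under 0.05 there were 3240, and the median log2 fold change of all tested genes was 0.000966. The size of the difference ran further among the lower genes. Their median change was 1.34 in absolute log2 units, and 29 of the 123 differed by at least 3. Among the higher genes the median was 1.03, and 12 of 111 differed by at least 3. One group had no count at all in 1 gene called higher and in 5 genes called lower. The rdd and dme libraries did not overlap in 108 of the 111 higher genes and in all 123 lower genes, beside 10.3% of all tested genes. The calls were made on these same libraries, so a lack of overlap largely follows from the call. The 3 called genes with overlap were ELIP1, VGD1 and AGT2.

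The number of calls depended on single libraries. Genes called higher numbered 204 without rdd B, and 61, 52, 71, 56, 51 and 48 without dme A, dme B, dme D, rdd A, rdd C and rdd D in that order. Genes called lower numbered 367 without rdd B and 221 without WT A, and 71, 62, 56 and 53 without dme B, rdd A, rdd C and rdd D. Of the 234 calls, 37 held in every one of 22 other settings of the analysis, 12 of them higher and 25 lower in rdd.

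**Figure D1:**
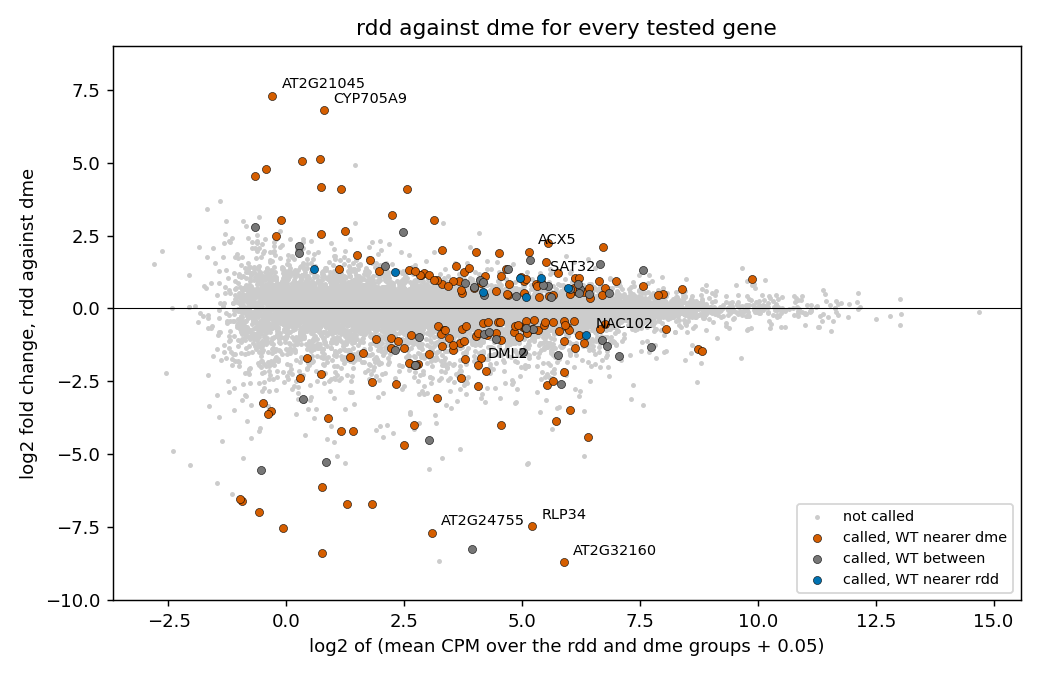
Log2 fold change of rdd against dme (y axis) over the log2 of the mean CPM of the rdd and dme groups plus 0.05 (x axis), 1 point per tested gene. Grey points are the genes without a call, and the 234 called genes are coloured by where the WT level lies. WT nearer dme is the colour of 182 of them, WT nearer rdd that of 8.

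Several of the largest falls were close to complete losses of transcript. AT2G24755, annotated as a long noncoding RNA, was measured at 17.0, 18.9, 13.8 and 17.5 CPM in dme A to D and at 0, 0.105, 0.0879 and 0.0862 CPM in rdd A to D. WT held at least 15.6 CPM and drdd at most 0.0513 CPM, so the genotypes with the 3 rdd alleles stood apart from those without. The log2 fold change was -7.68 ± 0.32, with the lowest edgeR adjusted p of the comparison (6.8e-09). AT2G32160, annotated as a methyltransferase-superfamily gene, went from 101.4, 91.2, 109.9 and 168.0 CPM in dme to 0.722, 0.105, 0.176 and 0.172 CPM in rdd. Its log2 fold change was -8.68 ± 0.56 (edgeR adjusted p = 2.21e-06). Its neighbour AT2G32170, which carries the same annotation, also fell, from 39.1 ± 5.15 CPM in dme to 25.4 ± 2.71 CPM in rdd (SD, n = 4 each; log2 fold change -0.62, edgeR adjusted p = 0.00913). Reads of such similar neighbours may be split between them, so their separate levels are uncertain.

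AT2G40960, annotated with a nucleic-acid-binding R3H domain, fell without reaching 0. It had 26.3, 25.4, 29.5 and 33.8 CPM in dme and 4.42, 4.08, 4.31 and 5.08 CPM in rdd. Both groups were tight and far apart, and the log2 fold change was -2.67 ± 0.13 (edgeR adjusted p = 2.2e-08). AT2G21860, annotated as violaxanthin de-epoxidase-like, went from 79.4 ± 8.23 to 12.8 ± 1.80 CPM (SD, n = 4 each; log2 fold change -2.63, edgeR adjusted p = 2.8e-07). AT2G21080, annotated as a Ras guanine nucleotide exchange factor, went from 12.1 ± 2.39 to 0.787 ± 0.211 CPM (SD, n = 4 each; log2 fold change -3.98, edgeR adjusted p = 4.4e-07). All 5 of the genes with the lowest adjusted p among the falls lie on chromosome 2, which also holds ROS1.

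LBD26, a gene of the LOB-domain family of plant transcription factors, was at 1.68, 5.39, 3.73 and 2.11 CPM in dme and at 0, 0.105, 0 and 0.0431 CPM in rdd. With 2 counts over the rdd group, its level in dme was 89.1 times that in rdd (95% counting interval 24.7 to 735.6; edgeR adjusted p = 0.000688). RLP34, a receptor-like protein of the kind that binds ligands at the cell surface, was at 45.1 to 97.7 CPM in dme and at most 0.993 CPM in rdd (log2 fold change -7.47 ± 0.94, edgeR adjusted p = 0.00135). It belongs to a family of similar genes, and reads shared with relatives may be missing. MRD1, whose name records a fall in a methionine-overaccumulating mutant, was even across dme, at 28.6 to 31.9 CPM, and at most 0.271 CPM in rdd (log2 fold change -8.25 ± 1.29, edgeR adjusted p = 0.00693). WT libraries were split for MRD1, with 16.5 and 24.1 CPM in WT A and C and 0.798 and 0.576 CPM in WT B and D. The salicylic acid list split WT in the same way, with a mean log2 CPM of 5.75 and 5.17 in WT A and C and of 3.04 and 3.02 in WT B and D. RLP34, with 197.3 and 140.9 CPM against 25.1 and 32.4 CPM, was split likewise. The part of this split in these genes was not tested.

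Neighbours AT3G09160, annotated as an RNA-binding protein, and AT3G09162 were lost together. AT3G09160 had 2.11 to 7.50 CPM in dme and 2 counts in all of rdd, a ratio of 130.3 (95% counting interval 36.1 to 1076; edgeR adjusted p = 9.22e-05). AT3G09162 had 1.75 to 5.90 CPM in dme and no count in rdd. Against a floor of 3 counts over the rdd group it was at least 60.1-fold lower, or at least 34.9-fold without rdd D (edgeR adjusted p = 0.000193). The noncoding RNAs AT2G22821 and AT4G04223 had no count in rdd either and were at least 33.2-fold and 22.7-fold lower, or 19.2-fold and 13.2-fold without rdd D. AT2G22821 passed at an edgeR adjusted p of 0.00837 and AT4G04223 at 0.0401, and the latter call was lost without WT B, WT C, dme A, dme D, rdd A, rdd C or rdd D (adjusted p up to 0.122). Pseudogene AT2G23330 had 343 counts in dme and 3 in rdd, a ratio of 126.2 (95% counting interval 43.2 to 612; edgeR adjusted p = 2.54e-05). AT2G35640, annotated as homeodomain-like, and the long noncoding RNA AT3G29644 complete the 12 largest falls, at log2 fold changes of -5.55 and -5.26 (edgeR adjusted p = 0.0159 and 0.0158). Both calls were lost without rdd A, rdd C or rdd D, with adjusted p up to 0.0859 and 0.0667. For both genes the WT mean lay between those of dme and rdd. It was 0.409 CPM for AT2G35640 and 0.679 CPM for AT3G29644, beside 1.26 and 3.41 CPM in dme. Floors and counting intervals cover counting error alone.

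Noncoding RNAs and pseudogenes made up part of the falls. Of 332 tested noncoding RNAs, 11 fell and 2 rose (3.92% called), and of 187 tested pseudogenes, 6 fell and 1 rose (3.74% called). Protein-coding genes were called at 1.19%, with 108 higher and 106 lower of 18003. No test was made of the difference between these classes.

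The rises included transcripts that were absent or nearly so from dme and WT. AT2G21045, annotated with a rhodanese domain, had no count in any dme or WT library. It stood at 1.44, 0.836, 2.20 and 1.64 CPM in rdd A to D and at 2.88, 2.85 and 1.57 CPM in drdd B to D. Against the floor of 3 counts over the dme group it was at least 25.3-fold higher in rdd, or at least 18.3-fold without dme A (edgeR adjusted p = 0.00479). CYP705A9, a cytochrome P450 gene, had 1 count in all of dme and 3.25, 4.08, 3.52 and 2.63 CPM in rdd. The ratio was 167.1 (95% counting interval 30.0 to 6602), with an edgeR adjusted p of 4.94e-05. Members of its P450 subfamily are similar to each other, so reads may be misassigned. AT3G07260, annotated with an FHA domain, which binds phosphorylated proteins, went from 0.078 ± 0.0598 to 3.09 ± 0.665 CPM (SD, n = 4 each; edgeR adjusted p = 0.000295). The long noncoding RNA AT3G06245 had 3 counts in dme and 132 in rdd, a ratio of 39.0 (95% counting interval 13.4 to 189.3; edgeR adjusted p = 0.00632).

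**Figure D2:**
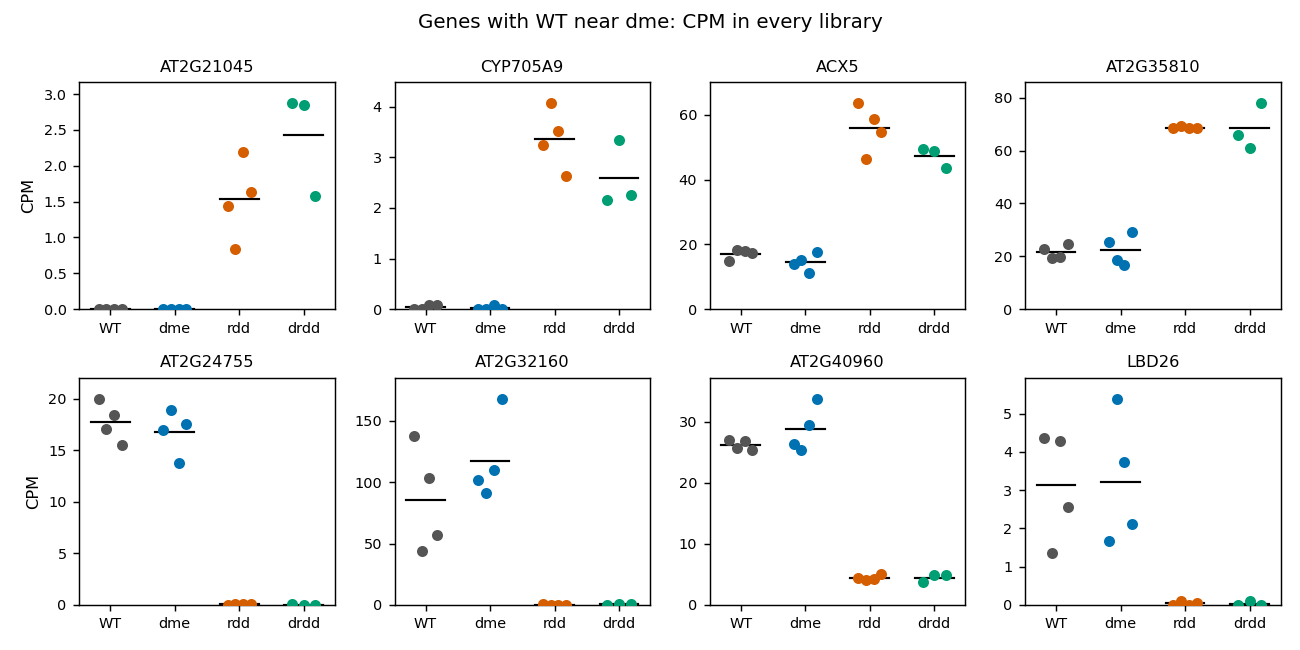
CPM (y axis, linear, from 0) of 8 genes whose WT level lies near dme, with 1 point per library and a black line at each group mean, for WT, dme, rdd and drdd (x axis). The upper 4 genes are high in rdd and drdd and the lower 4 are low there; AT2G21045 is at 0 in all WT and dme libraries.

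Other rises started from a measurable level. ACX5, an acyl-CoA oxidase of the family that begins peroxisomal beta-oxidation of fatty acids, was at 14.0, 15.1, 11 and 17.5 CPM in dme and at 63.7, 46.4, 58.6 and 54.7 CPM in rdd. The groups were well apart, with a log2 fold change of 1.95 ± 0.14 and the lowest edgeR adjusted p among the rises (2.21e-06). AT2G35810, annotated as a ureidoglycolate hydrolase, was at 25.5, 18.6, 16.9 and 29.2 CPM in dme and between 68.4 and 69.4 CPM in each rdd library (log2 fold change 1.61 ± 0.15, edgeR adjusted p = 4.94e-05). Its neighbour AT2G35820, with the same annotation, rose from 22.5 ± 1.63 to 43.1 ± 4.26 CPM, while the next gene, AT2G35830, fell from 96.6 ± 21.2 to 50.8 ± 8.62 CPM (SD, n = 4 each; edgeR adjusted p = 0.000592 and 0.0117). AT2G35820, AT2G35830, AT2G32170, RABE1e and AMP1 were singled out after their values were seen. The 3 ureidoglycolate hydrolase genes may share reads. AT2G30740, a protein kinase gene, rose from 20.1 ± 2.36 to 42.6 ± 3.56 CPM, and the unannotated AT2G25964 from 6.67 ± 1.39 to 25.8 ± 2.89 CPM (SD, n = 4 each; edgeR adjusted p = 2.54e-05 and 3.14e-05).

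SCPL7, a serine carboxypeptidase-like gene, rose from 1.91 ± 0.72 to 15.6 ± 4.48 CPM (SD, n = 4 each; edgeR adjusted p = 0.00102). RABC2b, a small GTPase of the Rab family that directs membrane traffic, went from 0.186 ± 0.0864 to 1.55 ± 0.201 CPM (SD, n = 4 each; edgeR adjusted p = 0.00913). Its neighbour RABE1e, another Rab GTPase, fell from 22.5 ± 2.03 to 16.3 ± 0.778 CPM (SD, n = 4 each; edgeR adjusted p = 0.0298). Protein kinase gene AT3G06630 rose from 0.637 ± 0.191 to 11.1 ± 1.76 CPM (SD, n = 4 each; edgeR adjusted p = 0.00829). In drdd it was at 8.42 CPM in drdd B and at 0.885 and 0.688 CPM in drdd C and D. AT3G09450 of the fusaric acid resistance family, AT1G50040 with a DUF1005 domain, THI2.2, AT3G01270 and the oxygenase gene AT3G11150 complete the 12 largest rises, with log2 fold changes of 4.17, 3.21, 4.09, 4.54 and 2.79. THI2.2 encodes a thionin, a small antimicrobial peptide, and was uneven across rdd, from 1.57 CPM in rdd B to 7.93 CPM in rdd D. Its call (edgeR adjusted p = 0.0378) was lost without any one dme library, rdd A, rdd C, rdd D or drdd B, with adjusted p up to 0.13. AT3G01270, a pectate lyase gene, was at 0.181 CPM in rdd A and 1.05 to 2.20 CPM in the other rdd libraries, and its call (edgeR adjusted p = 0.0339) was lost without any one dme library (adjusted p up to 0.0891). In drdd, which carries the rdd alleles as well, the AT3G01270 mean was 0.0342 CPM, beside 0.0488 CPM in WT and 0.0387 CPM in dme. AT3G11150 (edgeR adjusted p = 0.029) lost its call without dme B, dme C, dme D, rdd A, rdd C or rdd D, with adjusted p up to 0.0912. Its mean in WT was 0.470 CPM, between 0.138 CPM in dme and 1.02 CPM in rdd.

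Whether a difference went with one branch of the family was read from WT, which did not enter the contrast. A WT level was placed near dme where its distance to dme in mean log2 CPM was at most 1/2 of its distance to rdd, near rdd in the opposite case, and between otherwise. Of the 234 called genes, 182 (77.8%) had WT near dme, 44 (18.8%) between and 8 (3.42%) near rdd. Among all tested genes the shares were 40.9%, 40.2% and 18.9%. Lower genes had WT near dme in 102 of 123 cases (82.9%) and higher genes in 80 of 111 (72.1%). The median log2 fold change of the higher genes was 0.764 for rdd against WT and -0.175 for dme against WT, and that of the lower genes was -1.1 and 0.074. The placement used distance alone. At an edgeR adjusted p under 0.05, 128 of the 234 differed for rdd against WT, beside 1.08% of all tested genes. For dme against WT 1 did, beside 0.0108%, and 105 passed in neither comparison. These comparisons share the WT libraries with each other and their mutant libraries with the contrast that chose the genes, so the values are descriptions.

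drdd against WT shares no library with rdd against dme, although the estimate of spread is common. Of the 111 genes higher in rdd, 94 (84.7%) were also above 0 in drdd against WT, and 31 of them passed the test there in that direction (27.9%, beside 0.559% of all tested genes). Of the 123 genes lower in rdd, 108 (87.8%) were below 0 and 51 passed (41.5%, beside 0.79% of all tested genes). Among all tested genes with rdd above dme, 63.0% were above 0 in drdd against WT, and among those with rdd below dme, 64.1% were below 0. AMP1 was the one called gene that passed in opposite directions. This peptidase gene, whose loss enlarges the shoot meristem, was at 11.4 to 13.5 CPM in dme, 17.3 to 25.8 CPM in rdd, 12.2 to 14.6 CPM in WT and 4.47 to 6.69 CPM in drdd. Its log2 fold change was 0.87 for rdd against dme and -1.32 for drdd against WT (edgeR adjusted p = 0.0068 and 0.00057).

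**Figure D3:**
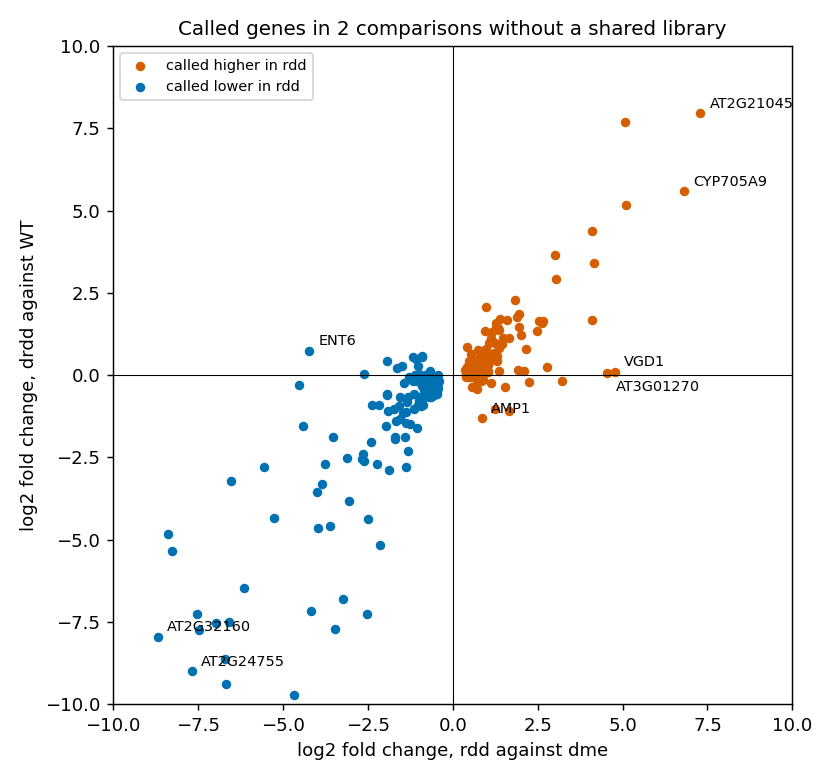
Log2 fold change of drdd against WT (y axis) over that of rdd against dme (x axis) for the 234 called genes, 1 point per gene, coloured by direction in rdd. Most points lie at the lower left and upper right; AMP1 and ENT6 lie outside these corners, and VGD1 and AT3G01270 lie near 0 on the y axis.

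A pattern held by 106 of the 234 called genes (45.3%, beside 15.4% of all tested genes) was WT near dme and drdd near rdd, the pattern of AT2G24755, ACX5 and CYP705A9. A further 33 called genes had both WT and drdd near dme, with rdd apart by distance. Their share (14.1%) was close to that of all tested genes (12.3%). ENT6, a nucleoside transporter gene, was singled out after its values were seen. It had 3.86, 4.09, 3.47 and 8.43 CPM in dme, 0.361, 0.209, 0.264 and 0.215 CPM in rdd and 4.13 to 7.34 CPM in drdd. It fell in rdd against dme by 4.22 on the log2 scale (edgeR adjusted p = 2.54e-05) and was higher in drdd than in rdd by 4.40 (edgeR adjusted p = 7.02e-05; 0.468% of all tested genes differed between drdd and rdd). Of the 33 genes, 8 differed between drdd and rdd and 21 between rdd and WT, beside 0.468% and 1.08% of all tested genes. These same rdd, WT and drdd levels picked the 33 genes, so shares above those of all tested genes follow from the choice. VGD1, a pectin methylesterase gene of pollen, was at 0.0903 CPM in rdd A, at 1.57 to 1.98 CPM in the other rdd libraries and at most at 0.163 CPM in dme, 0.0823 CPM in WT and 0.0513 CPM in drdd. With 2 counts over dme the ratio was 33.5 (95% counting interval 9.27 to 276.5; edgeR adjusted p = 0.0364), and the call was lost without WT C, WT D, any one dme library or drdd B (adjusted p up to 0.0971).

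In 8 of the called genes WT was near rdd, which places dme apart by distance alone. Of these, only SAT32 also passed for dme against WT (edgeR adjusted p = 0.00398). ATA20 and NAC102 were at 0.456 in that comparison, and the rest at 0.864 or above. SAT32 had the lowest adjusted p of the 8 for rdd against dme, and its name comes from a role in salt tolerance. It was at 24.7, 23.9, 29.7 and 32.9 CPM in dme, at 58.2, 53.2, 60.4 and 56.6 CPM in rdd and at 52.4 to 63.1 CPM in WT. The dme libraries lay below all others, and drdd, which carries dme-2 as well, was at 53.0 to 72.7 CPM. The log2 fold change of rdd against dme was 1.04 ± 0.12 (edgeR adjusted p = 0.000348). DFL2, annotated in the auxin-responsive GH3 family, also had its lowest mean in dme, at 20.1 ± 3.90 CPM. It was at 41.8 ± 10.6 CPM in rdd, 35.7 ± 3.75 CPM in WT (SD, n = 4 each) and 46.8 ± 7.85 CPM in drdd (SD, n = 3). Its edgeR adjusted p was 0.00935 for rdd against dme and 0.864 for dme against WT.

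For ATA20 and AP2, drdd stood with dme. ATA20, named for its expression in anthers, had 2.92, 3.43, 2.54 and 2.61 CPM in dme, 8.04, 6.27, 6.51 and 6.68 CPM in rdd, 4.38 to 7.98 CPM in WT and 2.06 to 4.01 CPM in drdd. The genotypes with dme-2 were thus below those without it (log2 fold change of rdd against dme 1.25 ± 0.23, edgeR adjusted p = 0.0141; 0.057 without rdd A). AP2, a transcription factor of floral organ identity that also delays flowering, had 13.2, 14.5, 13.4 and 17.2 CPM in dme, 21.1, 19.7, 22.0 and 23.4 CPM in rdd, 18.9 to 22.7 CPM in WT and 13.5 to 16.5 CPM in drdd. Its log2 fold change was 0.56 ± 0.12 (edgeR adjusted p = 0.0275), and the call was lost without dme A, dme B, dme C, rdd A, rdd C or rdd D (adjusted p up to 0.106).

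NAC102, a NAC-family transcription factor gene, was the one gene of the 8 that was higher in dme. It was at 93.0, 129.1, 113.1 and 93.4 CPM in dme, at 51.6, 59.7, 61.3 and 56.1 CPM in rdd and at 37.8 to 70.4 CPM in WT, with drdd at 68.4 to 92.9 CPM between them. The log2 fold change was -0.91 ± 0.20 (edgeR adjusted p = 0.0378), and the call was lost without any one dme library, rdd A, rdd C or rdd D (adjusted p up to 0.122). ZFP8, a zinc-finger gene of trichome development, was at 31.8 to 58.2 CPM in dme and 73.2 to 80.9 CPM in rdd. Its edgeR adjusted p was 0.0255, and 0.0511 to 0.0814 without dme A, dme B, rdd A, rdd C or rdd D. AT2G42030, a RING/U-box gene, was at 27.1 to 30.5 CPM in dme and 35.2 to 40.4 CPM in rdd (edgeR adjusted p = 0.0253; 0.0501 to 0.0876 without dme A, dme B, dme C, rdd A or rdd C). AT1G54217, annotated in the ribosomal protein L18ae family, was at 0.656 to 0.932 CPM in dme and 1.17 to 2.46 CPM in rdd (edgeR adjusted p = 0.0351). Its call was lost without WT C, any one dme library, rdd C, rdd D or drdd B (adjusted p up to 0.123). Against WT, dme differed at 2 of 18598 genes (0.0108%), SAT32 and MAF5, and rdd at 200 (1.08%); these counts share the WT libraries.

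**Figure D4:**
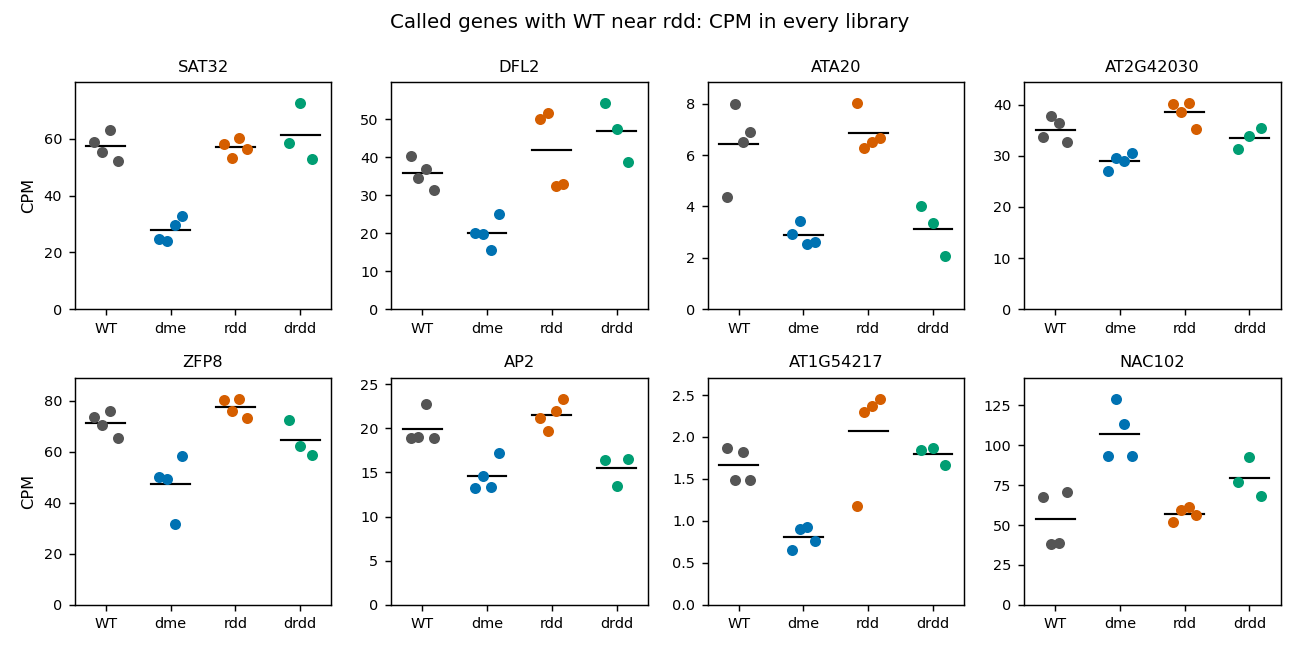
CPM (y axis, linear, from 0) of the 8 called genes whose WT level lies near rdd, with 1 point per library and a black line at each group mean, for WT, dme, rdd and drdd (x axis). In 7 genes dme is lower than rdd; in NAC102 the dme libraries, at 93.0 to 129.1 CPM, are higher.

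The calls were counted per chromosome and along the gene order, as a description without a test. Chromosome 2, with ROS1, held 77 called of 2807 tested genes (2.74%), and chromosome 3, with DML2, held 70 of 3692 (1.90%). Chromosome 4, with DML3, held 28 of 2849 (0.983%), chromosome 5, with DME, 26 of 4310 (0.603%), and chromosome 1, with no mutated gene, 33 of 4891 (0.675%). Within 500 genes on either side along the reference gene order, 35 of 644 tested genes around DML2 were called (5.43%) and 12 of 597 around ROS1 (2.01%), but 4 of 642 around DML3 (0.623%) and 3 of 600 around DME (0.5%). Outside these 4 windows, 180 of 16115 genes were called (1.12%). rdd and dme differ at these loci, so effects of the alleles and of other linked sequence differences cannot be told apart here.

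The position of the calls was different around each gene. On chromosome 2 the 500 genes that start 2000 before ROS1 held 19 called of 250 tested (7.6%), the next bins toward ROS1 held 4.83%, 4.18% and 3.91%, and the 500 genes after it held 1 of 315 (0.317%). AT2G21045, AT2G21080, AT2G21860, AT2G24755, AT2G32160, ACX5 and AT2G35810 lie before ROS1, with AT2G21045 the farthest. AT2G40960, ZFP8, AT2G42030 and VGD1 lie after it, all more than 500 genes away. On chromosome 3 the 500 genes before DML2 held 23 of 331 (6.95%) and the 500 after it 12 of 313 (3.83%). RABC2b, AT3G09450, AT3G09160, SCPL7, RLP34 and AT3G07260 lie within 500 genes of DML2, while LBD26, ATA20, AT3G29644, AT3G06245 and AT3G01270 lie farther away. Called genes at most 5 genes apart formed 26 runs with 55 genes, of which 13 runs lay on chromosome 2 and 8 on chromosome 3. These chromosomes held 32.9% and 29.9% of all calls. In 14 of the 26 runs the genes moved in both directions, as in RABE1e and RABC2b. All calls comprised 111 higher and 123 lower genes, and no expected number of runs or of mixed runs was worked out.

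**Figure D5:**
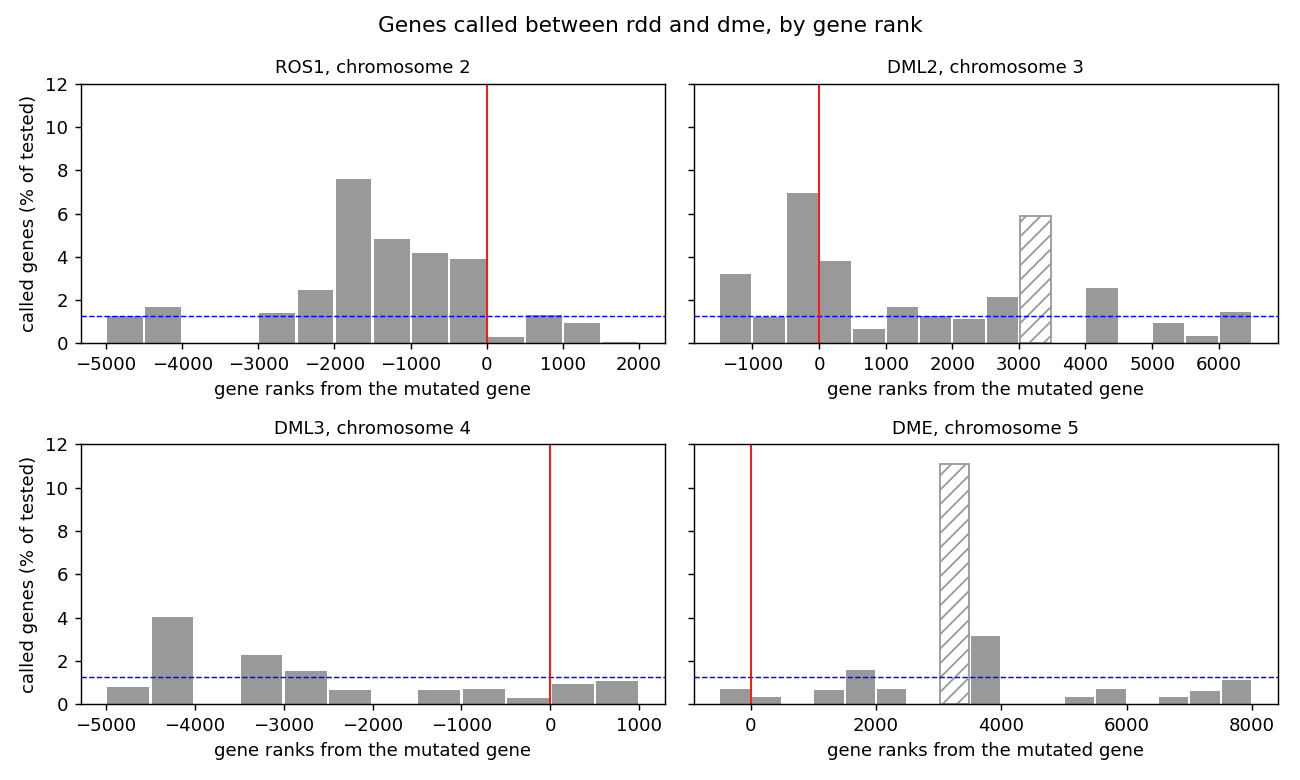
Percent of tested genes called between rdd and dme (y axis) in bins of 500 genes along the reference gene order, counted from the mutated gene on each chromosome (red line, x axis). The dashed line marks 1.26%, the share over all tested genes, and hatched bars rest on fewer than 20 tested genes. The 4 bars next before ROS1 (3.91% to 7.6%) and the bar on each side of DML2 (6.95% and 3.83%) stand above the line. The bars next to DML3 and DME lie below it, and single bars farther away lie above it on both chromosomes, as at 4500 genes before DML3 (4.03%).

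Of 325 tested genes in 28 lists of pathways and cell types, 7 were called (2.15%, beside 1.26% of all tested genes), 3 higher and 4 lower, and 22 lists had no called member. The mutated genes DML2 and DML3 are 2 of the 7. Beside DML2, DML3, RLP34 and VGD1 these were AGL24, RAB18 and PRR7. AGL24, a MADS-box promoter of flowering, was at 30.1, 32.8, 31.7 and 33.0 CPM in dme and 20.3, 16.9, 12.8 and 10.7 CPM in rdd. The ranges lay apart and the log2 fold change was -1.08 ± 0.20 (edgeR adjusted p = 0.0166; 0.0738 without rdd C and 0.0612 without rdd D). RAB18, a dehydrin gene induced by abscisic acid, was at 12.8 to 15.7 CPM in dme and 30.8 to 43.2 CPM in rdd (log2 fold change 1.35 ± 0.29, edgeR adjusted p = 0.0401). The clock gene PRR7, a repressor of the morning genes, was at 10.3 to 19.9 CPM in dme and 30.2 to 43.7 CPM in rdd (log2 fold change 1.37 ± 0.30, edgeR adjusted p = 0.0437). The RAB18 call was lost without WT D, any one dme library, rdd A, rdd C, rdd D or drdd B (adjusted p up to 0.119), and the PRR7 call without WT B, WT C, WT D, dme A, dme B, dme D, any one rdd library or drdd B (adjusted p up to 0.13). The hour of harvest was not given in the labels.

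No gene was called in the lists around the demethylases, which at 1.26% of all tested genes called says little for lists of this size. Of 27 tested genes for setting or keeping DNA methylation, among them MET1, CMT3 and DRM2, 15 were above 0 and the median log2 fold change was 0.0871. For 12 tested genes that work beside the glycosylases, such as the repair enzymes of the excised base and ROS3, the median was -0.0286. Of 13 listed methylation-controlled genes, only QQS passed the count filter. It was not called, at a log2 fold change of -2.57 for rdd against dme and -7.32 for drdd against WT. QQS was at 2.63 to 9.94 CPM in dme, 0.451 to 1.36 CPM in rdd and 2.06 to 21.4 CPM in WT. Flowering repressors had 0 calls of 19 with a median of -0.0479. FLC, the central repressor of flowering, was at 0.253 to 3.19 CPM in dme and 0.722 to 2.07 CPM in rdd, and MAF5, its relative, at 25.4 to 48.7 and 37.8 to 44.0 CPM (edgeR adjusted p = 0.946 and 0.747). MAF5 stood at 1.74 to 5.84 CPM in WT and 48.9 to 62.1 CPM in drdd, so each of the 3 mutant genotypes was above WT while rdd and dme overlapped. An adjusted p over the threshold does not show that rdd and dme were alike for these genes.

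The wound, jasmonate and ethylene, and salicylic acid lists had negative medians and no call. Wound and touch genes were below 0 in 18 of 18 tested members, beside 9264 of all 18598 tested genes, with a median log2 fold change of -2.11. Of the 18, 10 had an unadjusted p under 0.05, beside 3240 of all tested genes. WRKY40, a wound-induced transcription factor gene picked after its values were seen, stood at 19.0, 23.6, 350.2 and 11.7 CPM in dme A to D and 5.15, 16.4, 2.37 and 5.30 CPM in rdd. Of these 8 libraries dme C held the high values, and without it the list median was -0.816. The mean log2 CPM of the list was 1.91 to 3.53 in WT and 4.08, 5.87 and 3.02 in drdd B to D. Against WT the list median was 1.70 for dme, -0.614 for rdd and 2.42 for drdd, which also carries the rdd alleles. For the 24 tested genes of jasmonate and ethylene defence the median of rdd against dme was -1.26, and -0.861 without dme C. In drdd against WT it was 0.713, and -0.473 for salicylic acid defence genes. For the 24 tested genes of salicylic acid defence the median of rdd against dme was -0.744, with -1.94 without rdd B and -0.475 without dme C. The part of these libraries in the genes called above was not tested, beyond the counts without them.

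The stomatal lineage list stood on the other side. Its 9 tested members were all above 0, beside 9334 of all 18598 tested genes, with a median log2 fold change of 1.51 (1.23 to 1.85 on leaving out single libraries). Of the 9, 7 had an unadjusted p under 0.05, beside 3240 of all tested genes, and none was called. The members were uneven, with log2 fold changes from 0.235 to 2.33. SPCH, the transcription factor that starts the lineage, was at 0.948, 0.0817, 0.762 and 0 CPM in dme and 1.44, 3.14, 2.99 and 1.77 CPM in rdd, which do not overlap (edgeR adjusted p = 0.138). SPCH was outside the rule for named genes, and its dme level rests on 23 counts over the group. The mean log2 CPM of the list was 0.151 to 1.46 in dme and 1.56 to 2.39 in rdd, beside -0.0515 to 1.1 in WT and 1.79 to 2.85 in drdd. Xylem genes had a median of 0.809, and genes of mature guard cells 0.173. In bulk leaf, a change in the number of such cells and a change in RNA per cell cannot be told apart.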

How the data were processed

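RNA-seq counts per gene were used for 15 libraries of Arabidopsis leaf. The authors deposited whole-number counts per gene and library, made with HTSeq after STAR alignment of reads cleaned with Trim Galore and checked with FastQC, per the submitters' processing notes, which also name DESeq2. Their versions and the genome build were not given in the sources used here. Nor was the strand setting, so reads of overlapping or antisense genes cannot be told apart. The authors' own comparison tables were not used. The 5 summary lines of each file were left out; reads in no feature came to 1.54% to 2.17% and ambiguous reads to 0.117% to 0.176%. Libraries held 8730340 to 23302135 counts over 37336 genes, of which 37051 matched the TAIR10.1 gene table that gave names, chromosomes and gene order.

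A model with one mean per genotype was fitted to all 15 libraries with edgeR 4.0.16 (R 4.3.3; robust quasi-likelihood, filterByExpr with a minimum count of 10, TMM factors 0.953 to 1.09), leaving 11 residual degrees of freedom; the common BCV was 0.266. The contrast was rdd minus dme. Adjusted p-values are Benjamini-Hochberg values over all 18598 tested genes, and SE is the absolute log2 fold change divided by the root of F. The script was tested on simulated data. The 49 named genes were the 4 demethylase genes, FLC and MAF5, the 12 largest rises and falls with no overlap and at least 1 CPM, the 5 lowest adjusted p in each direction, 8 genes with WT near rdd and up to 4 called members of each list. Members and lists were chosen with earlier results of these data known. Alternatives were other scaling, no count filter, DESeq2 1.42.0, only the rdd and dme libraries, replicate letters as a block, single libraries left out, other windows and other prior counts. Deeper libraries give more precise values, and rdd D was the deepest.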

Additional observations from a re-analysis of the deposited data

Results flagged for a closer look

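Of 152 groups of 4 libraries examined, over the named genes and the gene lists, 12 had a library beyond Dixon's critical value for 4 samples at the 95% level (7.89%), where chance gives about 5%. rdd B stood apart in 3 lists, with a mean log2 CPM of 5.76 for salicylic acid defence genes (2.44 to 2.99 in the other rdd libraries), 3.08 for cell cycle genes (2.7 to 2.73) and 6.66 for phloem genes (7.21 to 7.28). dme D was low for epidermis genes, at 4.79 against 5.85 to 5.99 in the other dme libraries. The pollen list, of which VGD1 alone was tested, stood at -1.64 in dme B against -2.66 in the other dme libraries, and at -2.01 in rdd A against 0.788 to 1.1 in the other rdd libraries.

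Among named genes, CYP705A9 was at 0.0847 CPM in dme C and 0 in the other dme libraries, and VGD1 at 0.163 CPM in dme B and 0 in the others. AT2G35640 was at 0.0431 CPM in rdd D and 0 in the other rdd libraries. These rest on 1 or 2 counts each. AT2G32160 was at 0.722 CPM in rdd A against 0.105 to 0.176 CPM, AT1G54217 at 1.17 CPM in rdd A against 2.3 to 2.46 CPM, and AT2G35810 at 69.4 CPM in rdd B against 68.4 CPM.

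PISTILLATA (PI), a MADS-box gene of petal and stamen identity that did not pass the count filter, had 371 counts in rdd D. It had 0 to 2 counts in the other rdd and dme libraries, 0 to 7 in WT and 0 to 3 in drdd.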

How the results depend on the processing

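Counts of calls moved with the method and with single libraries, and the cause was not tested. DESeq2 called 368 genes higher and 531 lower in rdd, holding 233 of the 234 calls, and also called ROS1 (adjusted p = 0.00753) and DME (0.0446). Without dme C and rdd B, 180 were called higher and 296 lower. On leaving out single libraries, genes called higher ranged from 48 to 204 and genes called lower from 53 to 367. With only the rdd and dme libraries in the fit, 107 and 135 were called, of which 155 were among the 234.

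Of the tested genes near ROS1, DML2 or DML3, 2.71% were called, beside 1.26% of all tested genes. Without dme C and rdd B this was 4.23%, with 476 calls over all genes in place of 234. In a window of 200 genes it was 4.33%, beside 1.14% outside the windows. Without single libraries it ran from 1.28% to 4.37%, while the calls over all genes ran from 101 to 571. The share of called genes with WT nearer dme ran from 58.3% (without WT A) to 86.4%, and the share with the same direction in drdd against WT from 71.5% (without WT A) to 94.1%. Of 45 named called genes, 19 kept their call in every setting that tested them. FLC, which was not called, turned its direction to -0.10 without dme D, -0.00205 without rdd D and -0.0654 without dme C and rdd B, and its log2 fold change ran up to 1.22 without dme B.

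Replicate letters are shared by the genotypes. Deviations of same-letter rdd and dme libraries from their group means correlated at -0.0143, -0.357, -0.076 and 0.0915 for A to D. Pairs with unlike letters ran from -0.251 to 0.301. With 4 libraries per group, these values cannot show whether a letter marks a shared batch. With the replicate block, all libraries, 63 genes were called higher and 68 lower, and FLC stood at -0.0356. With the replicate block over the rdd and dme libraries alone, 19 and 32 were called, and 0.661% of tested genes near the 3 rdd loci.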

Other observations

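Members of 2 gene families were examined after their values were seen, and no test was made of either family. All 5 annotated genes with a DUF1005 domain were tested and lay above 0 in rdd against dme, beside 9334 of all 18598 tested genes. Of the 5, 3 were called higher, beside 0.597% of all tested genes. AT3G19680 was at 15.9, 18.7, 17.1 and 13.0 CPM in dme A to D, at 77.3, 49.1, 109.9 and 73.8 CPM in rdd and at 20.2 to 29.2 CPM in drdd (log2 fold change 2.26, edgeR adjusted p = 0.000119). AT1G50040 rose by 3.21 and AT4G29310 by 0.83 on the log2 scale (edgeR adjusted p = 0.013 and 0.043). AT5G17640 and AT1G10020 had log2 fold changes of 0.49 and 0.58 (edgeR adjusted p = 0.138 and 0.257). In drdd against WT the 5 genes ran from -0.45 to -0.18.

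Of 6 annotated EXORDIUM-like genes, which are related to a regulator of growth under brassinosteroids, 5 were tested, 3 lay above 0 and 2 were called higher, beside the same shares of all tested genes. EXL5 was at 30.3 to 45.8 CPM in dme, at 176.2, 112.6, 239.1 and 154.2 CPM in rdd and at 41.7 to 70.8 CPM in drdd (log2 fold change 2.1, edgeR adjusted p = 0.00246). EXL3 rose by 1.04 on the log2 scale (edgeR adjusted p = 0.0256). The other tested members were not called: AT5G09440 had a log2 fold change of 0.51, EXL2 of -0.60 and EXL7 of -3.73 (edgeR adjusted p = 0.474, 0.67 and 0.173).

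AT2G33830 had a mean of 10.6 CPM over the rdd libraries and 0.809 CPM over drdd, beside 118.6 CPM for dme and 161.8 CPM for WT. It was lower in rdd than in dme (edgeR adjusted p = 2.59e-06) and lower in drdd than in rdd (edgeR adjusted p = 9.34e-05), and it too was singled out after its values were seen.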
